A study of Sus scrofa with 20 samples.

Results

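The complement and coagulation genes are a list of 47 pig genes, and 30 of them had a reference ID in the count files, 1 ID each, out of 21755 reference IDs in all. The members were found by matching the RefSeq accession of each ID to a gene symbol. The other 17 genes (C1QB, C1QC, C1R, CFD, CFI, F3, F7, F11, F12, KNG1, FGA, FGB, FGG, F13B, PROC, PROS1 and SERPINF2) had no matching ID and were not analysed here. RNA-Seq counts came from testis and liver of boars whose fat androstenone was high or low. Androstenone is a steroid made by the Leydig cells of the testis and broken down in the liver, and it is one of the compounds behind boar taint. Each of the 4 groups (testis low, testis high, liver low and liver high) held 5 libraries, 1 library per sample, 20 in all. Both tissues came from the same boars, 5 per androstenone group, but the labels do not tie a testis to a liver, so the fits over both tissues treated the 20 libraries as independent. The boars were a cross of Duroc with F2 animals, the F2 having Leicoma, German Landrace and Large White ancestors, and were labelled as 116 days old at slaughter. The labels name no engineered allele and no treatment. The androstenone groups were the extremes of a larger pool, and other differences that go with androstenone in such a cross cannot be told apart from it.

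Complement is a cascade of blood proteins that marks microbes and damaged cells, and coagulation is a cascade of proteases that ends in a fibrin clot, which the fibrinolysis proteins dissolve. Hepatocytes secrete most of these proteins into blood. Some are also made outside the liver, such as C1q by macrophages and factor VIII and tissue plasminogen activator by endothelial cells. In the testis a barrier of Sertoli cells keeps many blood proteins from the later germ cells, and fluids of the male tract hold protease inhibitors of their own. The question was therefore how much of each transcript the testis holds beside the liver, and whether the level moved with androstenone or, in liver, with the share of reads that were counted.

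The testis libraries held 6161397 to 15975386 counts and the livers 5796973 to 26783002. Levels are given as CPM, a gene's share of its library's counts in parts per 1000000. Before scaling, a floor of 3 counts stood for 0.188 to 0.487 CPM in a testis library and for 0.112 to 0.518 CPM in a liver library, counting error alone being covered. The CPM printed are scaled by TMM factors, which were 1.27 to 1.45 in testis and 0.515 to 0.876 in liver. They are not divided by transcript length, so a gene is compared with itself across libraries and not with another gene. The tissue labels were checked against marker genes. ALB (albumin) was at 77689 CPM or more in every liver and at 31.3 CPM or less in every testis, while CYP17A1, a Leydig cell enzyme of steroid synthesis, was at 92.7 CPM or more in every testis and at 0.532 CPM or less in every liver.

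Together the 30 genes took 2.81% to 4.49% of all counts in the livers and 0.0314% to 0.0570% in the testes. By androstenone group the liver share was 3.58% to 4.49% in low and 2.81% to 4.06% in high animals, and these ranges overlapped. In liver, C3 supplied 31.3% ± 7.08 (SD, n = 10) of the counts of these genes, SERPINA1 16.4% ± 3.26 and SERPING1 11% ± 2.67. In testis the makeup differed, with 34.0% ± 7.66 from SERPING1, 28.7% ± 5.03 from C4A and 12.2% ± 4.72 from C3. All 30 genes had more than 3 counts in all 10 livers. In testis, 18 had more than 3 counts in all 10 libraries, 10 in only some of them, and MBL1 and MBL2 in none.

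The liver held more transcript than the testis for 28 of the 30 genes, 1 was lower in liver and 1 did not pass the test. The test was edgeR's quasi-likelihood test over all 19065 IDs with enough counts, and calls needed a Benjamini-Hochberg adjusted p under 0.05 together with a change of 1.5 times or more. Of all IDs, 75.7% were called, 32.2% as higher in liver and 43.5% as lower, and 80.2% had an unadjusted p under 0.05, as did 29 members. The median log2 fold change was 8.45 over the members and -0.31 over all IDs. It was 8.45 as well with MBL1 placed at the lower bound of its fold and MBL2 at the lower end of its counting interval. In 27 members every liver lay above every testis, against 15.3% of all IDs, and in PLAT every liver lay below every testis, against 27.5%. Lower RNA per cell and fewer cells of a type cannot be told apart in whole tissue. The direction over all IDs depended on the scaling. Of the called IDs 42.6% were higher in liver, 50.0% with upper-quartile scaling and 24.0% with total counts alone, where the median of all IDs was -1.28 and F8 was no longer called.

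**Figure D1:**
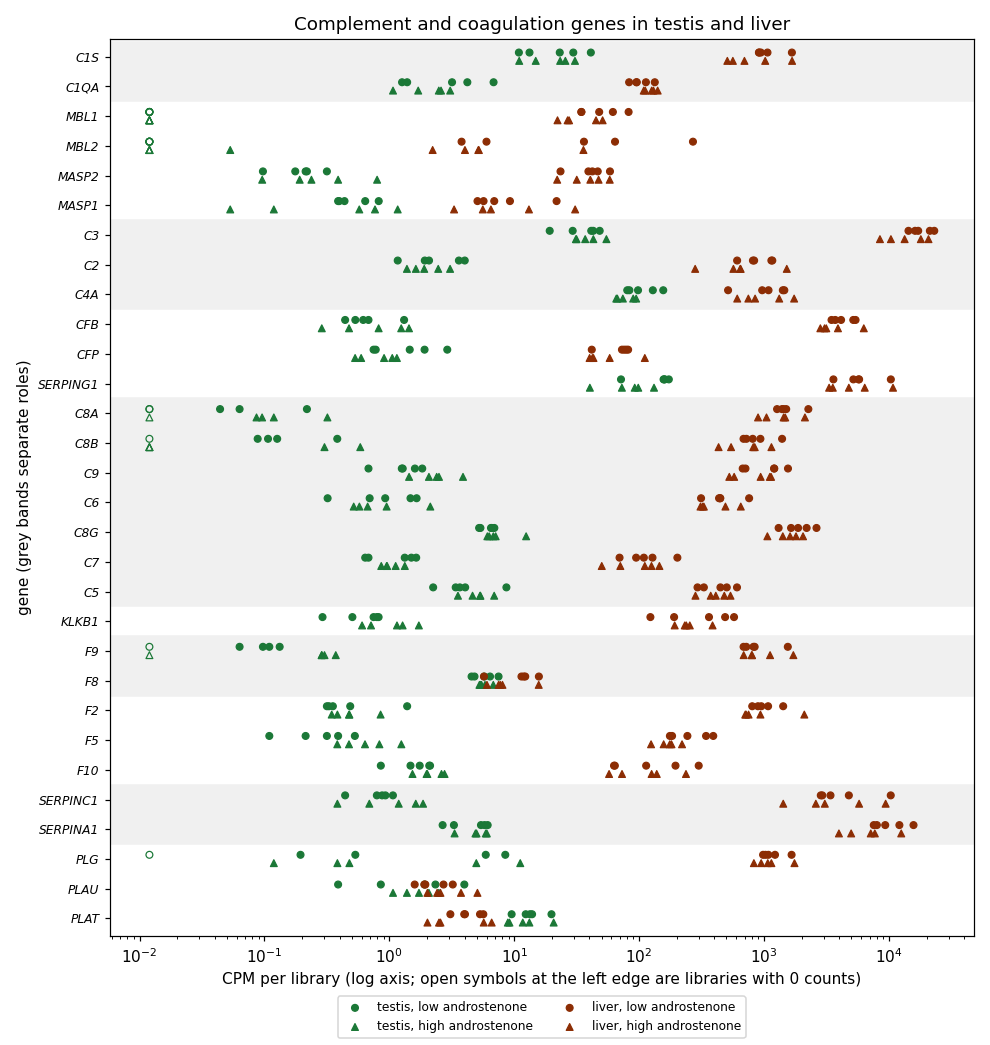
CPM of the 30 complement and coagulation genes in each of the 20 libraries, on a log axis, with 1 row per gene and grey bands that separate the roles. Green symbols are testes and brown symbols livers, circles low and triangles high androstenone, and open symbols at the left edge mark libraries with 0 counts. In 27 genes all livers lie to the right of all testes. F8 and PLAU overlap, and PLAT lies to the left in all livers.

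The genes of the C1 complex, which starts the classical pathway, were far higher in liver but clearly counted in testis. C1QA, a chain of C1q, was at 1.07 to 6.83 CPM in testis (median 2.54) and 83.2 to 141 CPM in liver (median 113), a log2 difference of 5.36 (SE 0.27, adjusted p = 2.4e-15). It had the narrowest range of the members across livers, with the highest liver 1.69 times the lowest. C1S, the protease of the complex that cuts C4 and C2, was at 10.9 to 41.1 CPM in testis and 509 to 1677 CPM in liver, a log2 difference of 5.47 (SE 0.32).

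The lectin pathway, in which mannose-binding lectins recognise microbial sugars and MASP proteases take the place of C1s, held the 2 members that were at 3 counts or fewer in every testis. MBL1 had 0 counts in all 10 testes and 22.2 to 82.4 CPM in liver, which is at least 2133-fold higher in liver when the testes are set to 3 counts over the group. MBL2 had 1 count in 1 testis, of the high group, and 2.22 to 270 CPM in liver. Its liver mean was 6380 times the pooled testis level, with an exact Poisson interval of 1145 to 251992 that covers counting error of the testis count only. The proteases differed less. MASP2 was at 0.0960 to 0.798 CPM in testis and 22.1 to 58.4 CPM in liver (log2 difference 7.12, SE 0.30). MASP1 was at 0.0532 to 1.17 CPM in testis and 3.30 to 30.7 CPM in liver (4.28, SE 0.45), so that its lowest liver was 2.83 times its highest testis.

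Among the components that the proteases cut, C4A had the smallest log2 difference of the members called higher, after F8. C4A was at 83.6, 156, 80.3, 98.0 and 129 CPM in the low testes, 66.9, 94.7, 89.7, 65.7 and 74.1 in the high testes, 1415, 515, 967, 1454 and 1086 in the low livers and 1323, 610, 1742, 749 and 848 in the high livers. The log2 difference was 3.53 (SE 0.25, adjusted p = 1.5e-12), and every liver was still above every testis. C3, on which all complement pathways converge, was at 19.2 to 54.7 CPM in testis and 8476 to 23067 CPM in liver (8.74, SE 0.34). C2, the protease partner of C4, was at 1.17 to 4.02 CPM in testis and 281 to 1522 CPM in liver (8.45, SE 0.36).

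Of the alternative pathway genes and regulators, CFB, the protease subunit of the alternative convertase, was at 0.288 to 1.44 CPM in testis and 2826 to 6294 CPM in liver, a log2 difference of 12.30 (SE 0.39). CFP, or properdin, a stabiliser of that convertase known from leukocytes, was at 0.532 to 2.91 CPM in testis and 40.1 to 111 CPM in liver (5.78, SE 0.28). SERPING1, the C1 inhibitor, was at 40.3 to 173 CPM in testis and 3320 to 10782 CPM in liver (5.73, SE 0.33).

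The 7 genes of the terminal components, whose proteins form the membrane pore, were all called higher in liver, with log2 differences from 6.49 for C5 to 13.66 for C8A. Of the 3 chains of C8, C8G was counted in all testes, at 5.24 to 12.5 CPM, beside 1064 to 2632 CPM in liver (7.98, SE 0.26). C8A and C8B did not exceed 0.319 and 0.585 CPM in testis and had more than 3 counts in 2 and 3 testes, beside liver levels of 896 to 2264 and 433 to 1395 CPM. C5 was at 2.24 to 8.66 CPM in testis and 283 to 608 CPM in liver, and C9 at 0.681 to 3.89 and 527 to 1556 CPM.

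The coagulation factors split between F8 and the others. F8, the cofactor of factor IX, was at 7.49, 4.81, 6.40, 5.75 and 4.56 CPM in the low testes and 5.27, 5.84, 6.80, 5.35 and 5.47 in the high testes. In the livers it was at 15.8, 12.3, 5.72, 11.9 and 11.4 CPM in the low and 7.73, 7.50, 8.05, 15.7 and 6.05 in the high group. The tissues overlapped, with 2 livers within the testis range. The log2 difference was 0.81 (SE 0.20, adjusted p = 0.00060), which is 1.12 above the median of all IDs. With total counts alone it was -0.17 (adjusted p = 0.45) and 1.11 above the median of all IDs. F9, the protease that needs this cofactor, had 27 counts in the 10 testes together and 686 to 1717 CPM in the livers, a log2 difference of 12.50 (SE 0.39).

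In the common pathway, F2 (prothrombin) was at 0.316 to 1.39 CPM in testis and 708 to 2102 CPM in liver, with a log2 difference of 10.93 (SE 0.39). F10, the protease that activates it, was at 0.855 to 2.77 CPM in testis and 57.5 to 300 CPM in liver (6.14, SE 0.35), and F5, its cofactor, at 0.109 to 1.25 and 125 to 392 CPM (8.80, SE 0.30). KLKB1, plasma prekallikrein of the contact system, was at 0.292 to 1.72 CPM in testis and 123 to 575 CPM in liver (8.47, SE 0.34). The serpins listed with the anticoagulants were both called. SERPINC1 (antithrombin) was at 0.384 to 1.86 CPM in testis and 1425 to 10341 CPM in liver (12.21, SE 0.52), and SERPINA1 (alpha-1-antitrypsin) at 2.67 to 6.13 and 3979 to 15736 CPM (10.81, SE 0.37).

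Fibrinolysis was the role in which the tissues were divided. PLAT, tissue plasminogen activator, was at 9.53, 19.9, 12.4, 13.9 and 13.3 CPM in the low testes and 8.89, 13.2, 20.7, 9.16 and 11.7 in the high testes. In liver it was at 5.32, 4.04, 3.08, 3.98 and 5.66 CPM in the low and 5.70, 2.50, 6.60, 2.02 and 2.57 in the high group, so that every testis was above every liver. Its log2 difference was -1.64 (SE 0.23, adjusted p = 5.0e-07), and the testis mean was 320% of the liver mean. The size depended on the scaling, and with total counts alone the log2 difference of PLAT was -2.67. PLAU, urokinase, was at 0.389 to 3.99 CPM in testis and 1.60 to 5.08 CPM in liver, with a log2 difference of 0.54 (SE 0.30, adjusted p = 0.10). It was called at 0.75 (adjusted p = 0.021) without testis low 5, which had the highest testis level, and at 0.89 (adjusted p = 0.0087) with upper-quartile scaling. With total counts alone its value was -0.46 (adjusted p = 0.15). Their substrate PLG, plasminogen, was at 830 to 1753 CPM in liver and at 0 to 11.2 CPM in testis (8.44, SE 0.79).

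Testis PLG was divided between libraries. In the low testes 1 to 5 it was at 0.195, 0.534, 5.92, 8.48 and 0 CPM, and in the high testes 1 to 5 at 11.2, 4.97, 0.479, 0.119 and 0.384 CPM. The 4 libraries with PLG had 115 to 210 counts of it, and the other 6 had 0 to 5. Both androstenone groups contributed 2 libraries to the higher set. These 4 were also the most deeply sequenced testes, with 12975765 to 15975386 counts against 6161397 to 12462278. The next in depth was low 5, which had 12462278 counts and 0 of PLG. CPM are shares of a library's counts, and other differences that go with depth were not tested. ALB was at 6.75 to 31.3 CPM in the 4 libraries and at 0.506 to 10.9 in the others. PLG counts were 35.7% to 114% of the ALB counts in the 4 testes, 0% to 50.0% in the other 6, and 0.716% to 1.32% in the livers. The acute phase gene ITIH4, picked from its marker list after its values were seen, was at 7.87 to 15.0 CPM in the 4 and at 1.28 to 5.59 CPM in the others. The rest of that list did not separate the 2 sets. HP was at 4.64 to 16.4 CPM in the 4 and at 1.27 to 4.98 CPM in the others. SAA3, CRP and HAMP had 6 counts or fewer in every testis, and SAA3 was highest in low 5, outside the 4. What set these libraries apart was not tested.

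**Figure D2:**
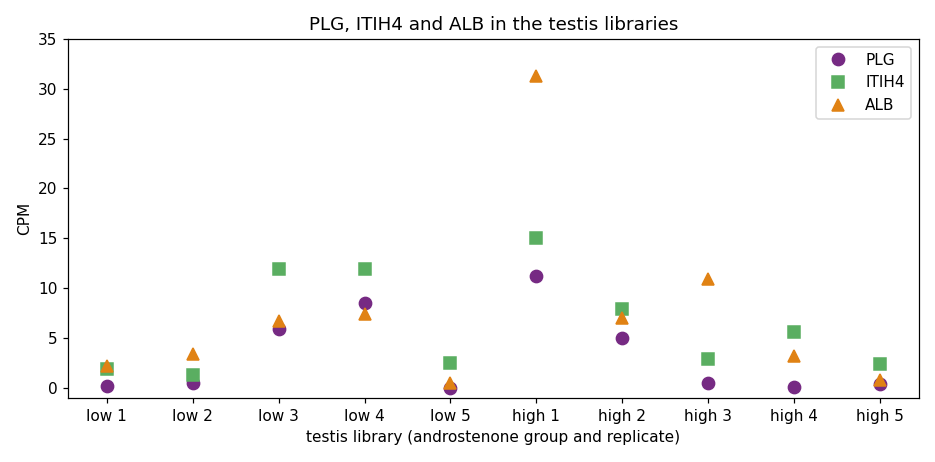
CPM of PLG, ITIH4 and ALB in the 10 testis libraries, named by androstenone group and replicate. PLG is at 4.97 CPM or more in low 3, low 4, high 1 and high 2 and at 0.534 CPM or less in the other 6, and ITIH4 is highest in the same 4. ALB stands apart in high 1, at 31.3 CPM.

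The testis mean was set as a percentage of the liver mean for each gene, beside the same figure for hepatocyte genes. For ALB, APOA2, APOH, AMBP and RBP4 it was 0.00587% to 0.0154%. For the hepatocyte genes TF and APOA1 it was 0.202% and 3.03%. Those 5 were thus the lowest of the 7 measured, and no stated rule chose them. Over all 7 the range was 0.00587% to 3.03%. Among the complement and coagulation genes, MBL1, C8A and MBL2 were within or below the range of those 5 (0% to 0.0123%). MBL1 and MBL2 had 0 counts and 1 count in the testes, so counting error allows both to lie above it. F9, C8B, CFB and SERPINC1 lay just above the range of those 5, at 0.0170% to 0.0212%. In all, 16 genes lay above the range of the 5 and under 1%, 8 lay at 1.12% to 8.76%, and 3 at 56.5% or more. The 8 were C5, F10, CFP, SERPING1, C1S, C1QA, MASP1 and C4A, and the 3 were F8 (56.5%), PLAU (67.0%) and PLAT (320%). The range of all 7 hepatocyte genes takes in the 16 and, of the 8, C5, F10, CFP, SERPING1, C1S and C1QA (2.44%). MASP1 (4.97%) and C4A (8.76%) lay above it, as did the 3. These percentages are of TMM-scaled CPM. With total counts alone the log2 differences of F8 (-0.17) and PLAU (-0.46) changed sign. Testis high 1 had the highest level of the testes for 4 of the 7 hepatocyte genes, ALB (0.0250% of the liver mean), APOH (0.0322%), AMBP (0.0369%) and RBP4, while APOA1 was highest in testis low 5, TF in low 3 and APOA2 in high 3. Of the members, 11 of 30 were highest in high 1, among them MBL2, C8A and F9 at only 1, 6 and 7 counts there. MBL1 had 0 counts in every testis. Without testis high 1 and liver high 3 in the test, 28 members were again called higher and 1 lower. The 6 macrophage markers measured were also all called higher in liver, and their summed level was 9.63 to 40.8 CPM in testis and 498 to 832 CPM in liver. Their part in the C1QA and CFP levels was not tested.

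No complement or coagulation gene was called between high and low androstenone livers. Of 15855 IDs tested 0 were called (0%), and 465 (2.93%) had an unadjusted p under 0.05. DESeq2 called 7 IDs and 0 members. The members had 9 positive and 21 negative log2 fold changes with a median of -0.14, beside 0.01 over all IDs. The split moved with single livers. It was 15 and 15 (median 0.00092) without liver low 5 and 4 and 26 (median -0.34) without liver high 3, beside 5 and 25 with upper-quartile scaling. All 7 hepatocyte markers were negative too, with a median of -0.18 and 0 called, and their part in the members' values was not tested. In no member did the groups separate, against 0.0883% of all IDs with every high liver above and 0.467% with every high liver below.

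**Figure D3:**
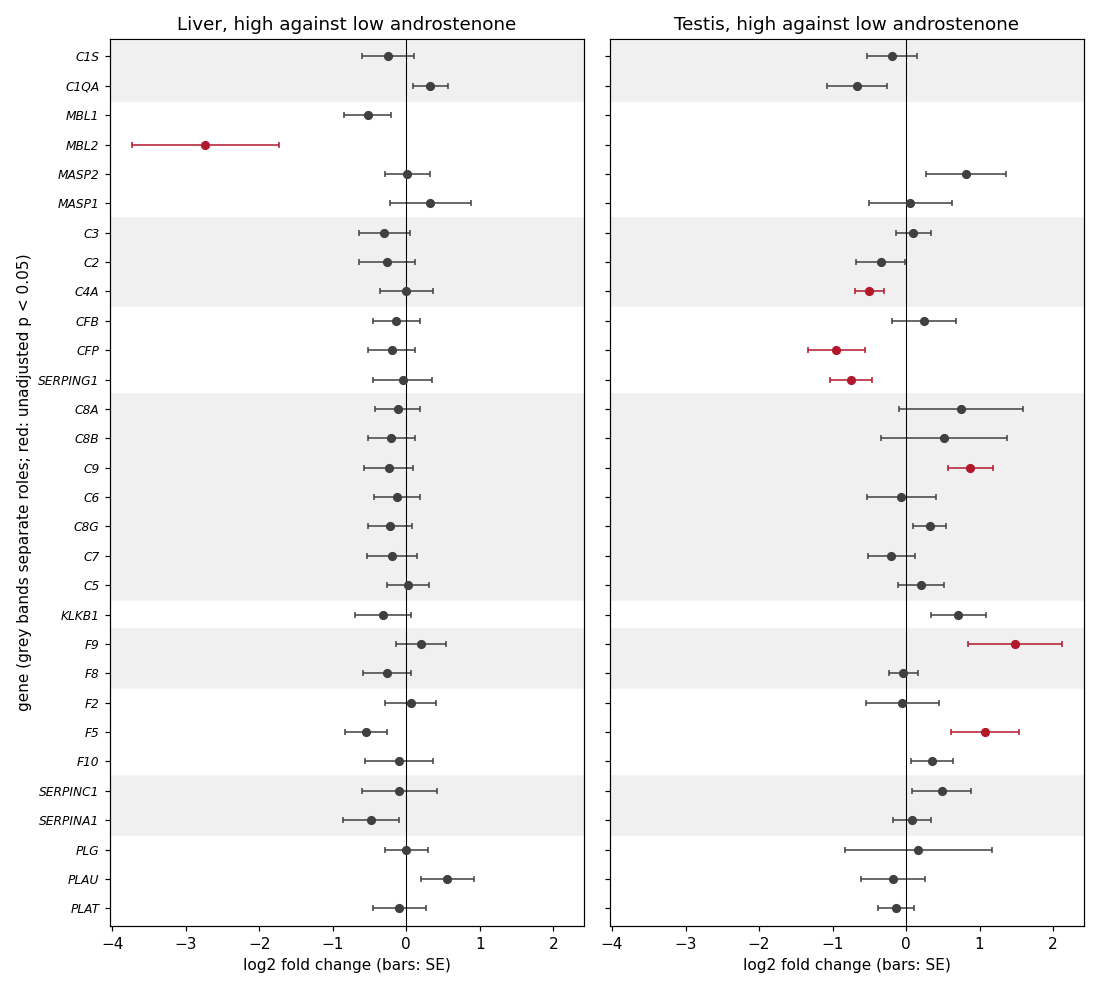
Log2 fold change of high against low androstenone for each gene, in liver (left) and testis (right), with bars of 1 SE and grey bands that separate the roles. Red marks an unadjusted p under 0.05, which holds for MBL2 in liver and for C4A, CFP, SERPING1, C9, F9 and F5 in testis. None of these passed the adjustment over all IDs, and MBL1 and MBL2 had too few counts in testis to be fitted.

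MBL2, which the study lists as lower in high androstenone livers by DESeq, was the 1 member with an unadjusted p under 0.05 in liver. It was at 270, 36.2, 64.1, 3.79 and 6.0 CPM in the low livers 1 to 5 and at 2.22, 5.21, 35.8, 5.16 and 4.03 CPM in the high livers 1 to 5. High levels were found in 3 of 5 low and 1 of 5 high livers, so the groups overlapped. The highest liver was 121 times the lowest, the widest range of any member, and low 1 alone supplied 71.0% of the low group's sum. The log2 fold change was -2.74 (SE 1.00, unadjusted p = 0.015, adjusted p = 1.00). An exact two-sided permutation test on log2(CPM + 0.5) gave p = 0.12 for a difference of -2.05, where 5 against 5 libraries allow no p below 0.0079. Without low 1 the log2 fold change was -1.38. It was called by edgeR's likelihood ratio test on trended dispersions, which leaves out how far a gene's own spread exceeds the trend (adjusted p = 2.6e-08). That test called 45 of the 15855 IDs in liver, and 225 of 18340 IDs and 0 members in testis.

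MBL1, the other lectin, was ordered differently across the livers. It was at 47.9, 61.6, 34.5, 34.5 and 82.4 CPM in the low and at 26.8, 51.0, 45.2, 22.2 and 27.5 CPM in the high livers, a log2 fold change of -0.53 (SE 0.32, adjusted p = 1.00). Low 5 had the highest MBL1 of the livers and 6.0 CPM of MBL2. F5 had the next lowest unadjusted p. It was at 343, 392, 176, 184 and 243 CPM in the low and 182, 157, 176, 221 and 125 CPM in the high livers, a log2 fold change of -0.55 (SE 0.29, unadjusted p = 0.072, adjusted p = 1.00). The terminal components were all between -0.24 and 0.02, and SERPINA1 was at -0.48 (SE 0.38).

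**Figure D4:**
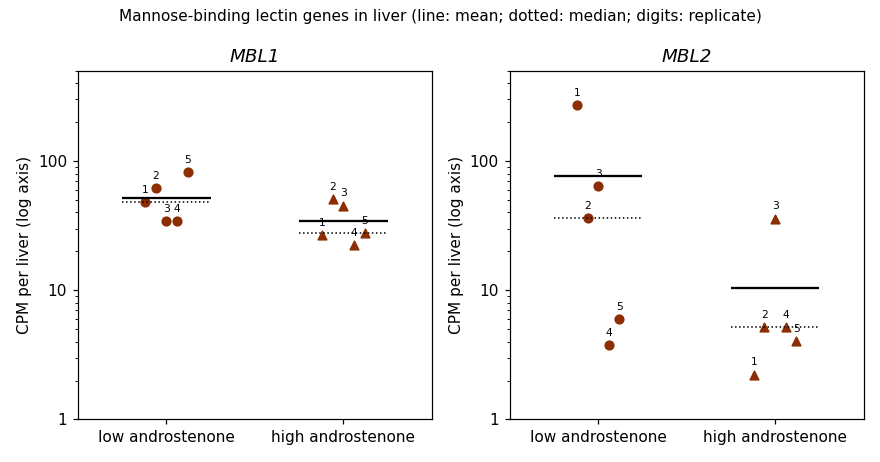
CPM of MBL1 and MBL2 in each liver on log axes with the same limits, by androstenone group, with digits for the replicate, a line at the mean and a dotted line at the median. MBL1 spans 22.2 to 82.4 CPM. MBL2 spans 2.22 to 270 CPM, with low 1, low 2, low 3 and high 3 at 35.8 CPM or more and the other 6 livers at 6.0 CPM or less.

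In testis, too, no member was called between the androstenone groups. Of 18340 IDs tested 0 were called (0%), and 1741 (9.49%) had an unadjusted p under 0.05. Of the members 28 could be tested, 6 of them had an unadjusted p under 0.05, and their adjusted p were 0.43 to 0.49. That count was 2 without testis low 5, 3 without low 2, high 1 or high 4, 8 without low 1, 4 to 6 without any other testis, and 1 with the share of counted reads as a covariate. DESeq2 called 119 IDs and 0 members. In no member did the groups separate, against 0.758% of all IDs with every high testis above and 1.1% with every high testis below. C4A, SERPING1 and CFP were lower in the high group by the fitted values, and C9, F9 and F5 were higher.

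SERPING1 was at 71.6, 159, 161, 157 and 173 CPM in the low and 40.3, 98.4, 132, 72.8 and 92.2 CPM in the high testes, a log2 fold change of -0.75 (SE 0.28, adjusted p = 0.44). Low 1 lay within the high range, and the other 4 low testes were above every high testis. CFP was at 0.778, 0.748, 1.46, 1.92 and 2.91 CPM in the low and 0.532, 0.908, 1.15, 0.595 and 1.06 CPM in the high testes (-0.95, SE 0.39, adjusted p = 0.46). For C4A, whose values are above, the log2 fold change was -0.50 (SE 0.20, adjusted p = 0.45). Of the 6 macrophage markers 5 were negative in the same contrast, among them CSF1R at -0.78, FCER1G at -0.77 and AIF1 at -0.71, with adjusted p of 0.49 to 0.52. Their summed level was 9.63 to 40.8 CPM in the low and 13.2 to 21.0 CPM in the high testes. Other cell types shared the direction, with 0 markers called. All 3 endothelial markers (median -0.35), all 3 Sertoli cell markers (median -0.38) and the stromal marker DCN (-0.40) were negative. Of the 4 Leydig cell markers 3 were positive. The part of any of these cell types in the values of CFP, SERPING1 and C4A was not tested.

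C9 was at 0.681, 1.60, 1.28, 1.26 and 1.83 CPM in the low and 2.08, 3.89, 2.39, 2.50 and 1.44 CPM in the high testes, a log2 fold change of 0.87 (SE 0.31, adjusted p = 0.43). High 5 lay within the low range, and the other 4 high testes were above every low testis. F9 was at 0.0973, 0, 0.132, 0.109 and 0.0633 CPM in the low and 0.373, 0.303, 0.287, 0 and 0.288 CPM in the high testes (1.49, SE 0.64, adjusted p = 0.49), all at a few counts. F5 was at 0.389, 0.214, 0.530, 0.109 and 0.316 CPM in the low and 0.639, 0.475, 0.383, 0.833 and 1.25 CPM in the high testes (1.08, SE 0.46, adjusted p = 0.49), from 72 counts in all. Of the 7 hepatocyte markers 6 were positive in the same contrast, with ALB at 1.35 (adjusted p = 0.56) and AMBP at 1.36 (adjusted p = 0.49). The summed level of the 7, in which APOA1 alone took 19.9 to 112 CPM, was 40.7 to 118 CPM in the low and 32.2 to 73.7 CPM in the high testes. The part of such RNA in the C9, F9 and F5 values was not tested.

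The change with androstenone was not shown to differ between the tissues for any member. Of 19065 IDs 0 were called in the test of the difference (0%), 890 (4.67%) had an unadjusted p under 0.05, and DESeq2 called 1 ID. Of the 30 members 2 had an unadjusted p under 0.05, and DESeq2 called 0. For F5 the liver change minus the testis change was -1.72 on the log2 scale (SE 0.51, unadjusted p = 0.0026, adjusted p = 0.96), with -0.55 in liver and 1.08 in testis. For C9 it was -1.21 (SE 0.47, unadjusted p = 0.017, adjusted p = 1.00), with -0.24 in liver and 0.87 in testis.

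The livers differed in the share of their reads that ended up in the count table. That share, the deposited total count over the reads the study lists for the library, was 45.1% to 56.7% in the low and 39.8% to 59.3% in the high livers. For liver high 3, at the top of that range, the percentage printed in the study's read table is at odds with the read numbers beside it, and the share here follows the read numbers and the deposited counts. It was fitted beside androstenone group as a slope on the log2 scale per 10 percentage points. Of 15855 IDs 26.3% were called, 13.6% with a rising and 12.8% with a falling level. Among the 30 members 6 rose with the share (MASP1, SERPINC1, SERPING1, C1S, F9 and F2), 1 fell (F10), and 23 were not called. An unadjusted p under 0.05 was found for 16 members and for 40.4% of all IDs. The median slope was 0.43 over the members and -0.03 over all IDs. Over the members it was 0.13 without the 2 livers of the highest share and 0.16 with total counts alone. In 21 of the 30 genes the highest liver was 1 of the 2 with the highest shares, low 5 and high 3, which also had the lowest TMM factors, 0.575 and 0.515. With total counts alone 4 members were called, MASP1 and SERPINC1 as rising and F10 and MASP2 as falling, the median of all IDs was -0.30, and 21.1% of the called IDs were rising, against 51.6% with TMM.

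**Figure D5:**
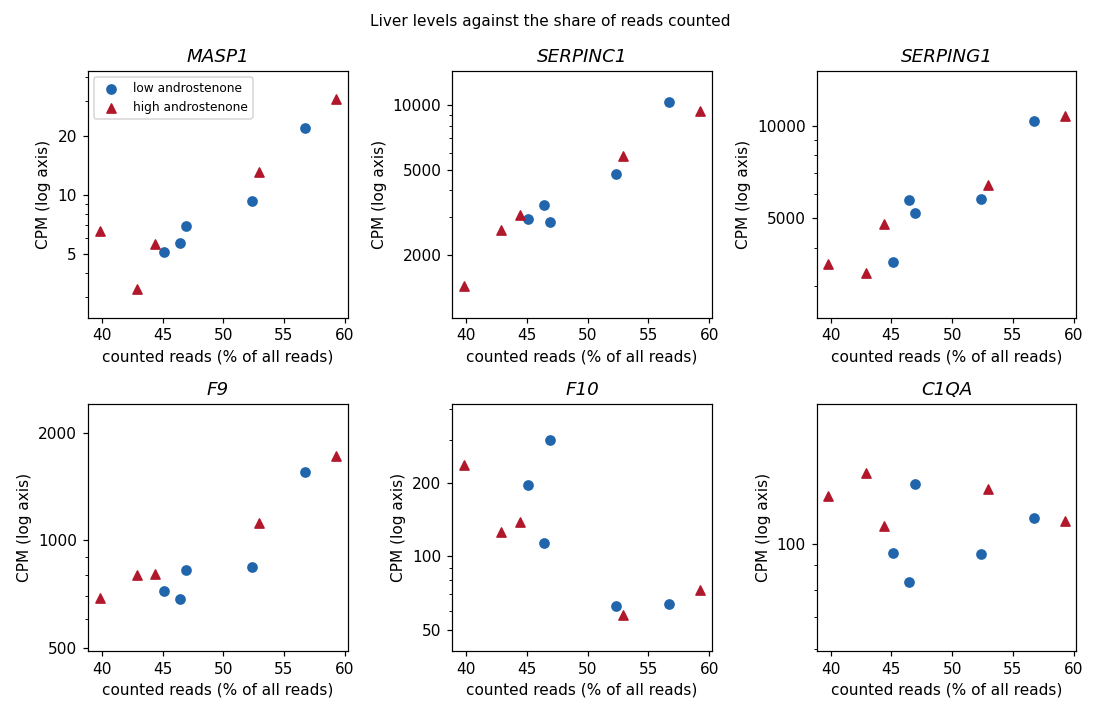
CPM of MASP1, SERPINC1, SERPING1, F9, F10 and C1QA in the 10 livers (log axes) against the share of all reads that was counted, in percent. Blue circles are low and red triangles high androstenone. MASP1 and SERPINC1 are highest in the 2 livers at the right, F10 is at 72.9 CPM or less in the 4 livers above 52% and at 114 CPM or more in the other 6, and C1QA stays between 83.2 and 141 CPM.

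MASP1 had the steepest slope. In order of rising share its level was 6.51, 3.30, 5.60, 5.08, 5.68, 6.92, 9.25, 13.1, 21.8 and 30.7 CPM, a slope of 1.45 (SE 0.20, adjusted p = 0.00043). The first 6 livers showed little order, and the rise came with the 4 livers of the highest share. Without the 2 livers of the highest share the slope was 1.11 and no longer called (adjusted p = 0.081). SERPINC1, in the same order, was at 1425, 2600, 3067, 2927, 3406, 2847, 4777, 5772, 10341 and 9412 CPM, a slope of 1.33 (SE 0.20, adjusted p = 0.00057), and it was called under every alternative tried.

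The other members that rose had slopes of 0.65 to 0.85. SERPING1 was at 3554, 3320, 4778, 3593, 5715, 5191, 5773, 6404, 10360 and 10782 CPM in order of rising share, a slope of 0.85 (SE 0.20, adjusted p = 0.0053). C1S had a slope of 0.78 (SE 0.17, adjusted p = 0.0040), F9 of 0.70 (SE 0.17, adjusted p = 0.0079) and F2 of 0.65 (SE 0.18, adjusted p = 0.017). None of these 4 was called without the 2 livers of the highest share or with total counts alone, where their slopes were 0.37 to 0.58. Without high 3, which had the highest share, 4 members were called, and C1S, F9 and F2 were not, F2 with a slope of 0.36 (adjusted p = 0.36). F9 also fell under the fold threshold without low 5 (0.58), and without high 4, which had the lowest share, 11 members were called.

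F10 went the other way. In order of rising share it was at 237, 126, 138, 196, 114, 300, 63.0, 57.5, 63.9 and 72.9 CPM, so the 4 livers with the highest shares had the 4 lowest levels. The slope was -1.08 (SE 0.25, adjusted p = 0.0053), and -1.35 with total counts alone. MASP2 was at 47.4, 40.7, 58.2, 46.6, 42.2, 58.4, 23.5, 22.1, 39.3 and 31.7 CPM in that order, with a slope of -0.48 (SE 0.20, adjusted p = 0.078) that was called with total counts alone (-0.77, adjusted p = 0.014) and under no other alternative tried. The members closest to a flat slope were KLKB1 (-0.01, SE 0.30), C3 (-0.01, SE 0.23) and C1QA (-0.05, SE 0.17). Of the 7 hepatocyte markers 2 rose, RBP4 and TF, with slopes of 0.82 each, 5 were not called, and 6 of the 7 slopes were positive. None of the 6 macrophage markers was called, and of the 3 endothelial markers 1 fell, ENG (-0.95, adjusted p = 0.025). What else differed between livers of high and low share was not tested.

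Of the other complement genes, a list of 23 named receptors and regulators, 9 had an ID. In liver 3 were called higher, 2 lower and 4 were not called. C4BPA and C4BPB, chains of the C4b-binding protein, were among those called higher, at 5.32 (SE 0.46) and 9.52 (SE 0.33) on the log2 scale. The membrane-bound inhibitors did not share that excess. CD59, which blocks the pore, was at 4.49 to 12.3 CPM in testis and 0.379 to 3.96 CPM in liver (-1.96, SE 0.25, adjusted p = 9.4e-08). CD46 (0.07, SE 0.21, adjusted p = 0.77) and CD55 (0.26, SE 0.35, adjusted p = 0.50), which act on the convertases, were not called. CLU, clusterin, which binds the forming pore, was at 4014 to 21775 CPM in testis and 2352 to 23237 CPM in liver (-0.30, SE 0.34, adjusted p = 0.42). With total counts alone, CLU (-1.38) and CD46 (-0.94) were called lower in liver. C5AR2, a receptor for C5a, was lower in liver (-0.95, SE 0.35, adjusted p = 0.015), though not called with upper-quartile scaling (-0.61, adjusted p = 0.11), and ITGAM, a chain of a complement receptor of leukocytes, was not called.

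Of 23 other coagulation and fibrinolysis genes 12 had an ID and 11 could be tested. In liver 6 were called higher, 2 lower and 3 were not called. SERPIND1 (heparin cofactor II) and CPB2, a carboxypeptidase that slows fibrinolysis, had the largest differences at 13.12 and 12.18. SERPINA5, the protein C inhibitor, known also from the male tract, was at 170 to 616 CPM in testis and 852 to 3673 CPM in liver (2.33, SE 0.26). Lower in liver were F13A1, the clot-stabilising transglutaminase subunit, at 9.98 to 21.2 CPM in testis and 2.45 to 13.3 CPM in liver (-1.70, SE 0.27), and TFPI, the inhibitor of the tissue factor pathway (-1.46, SE 0.34). SERPINE2, PLAUR and F2RL1 were not called, with log2 differences of -0.30, -0.13 and -0.90, and all 3 were called lower with total counts alone (-1.29, -1.18 and -1.92). ANXA2, an annexin that binds plasminogen, was called higher at 0.98 and not with total counts alone (-0.06). None of these 20 genes tested was called between the androstenone groups in either tissue.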

How the data were processed

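RNA-Seq counts of 10 testis and 10 liver samples were analysed. The authors made full-length amplified cDNA, sequenced single reads of each sample on 1 lane, used CASAVA 1.7, aligned the reads with BWA to RefSeq and UniGene transcripts of Sscrofa 9.2, and deposited raw counts per reference ID. How reads that fit several transcripts were counted is not given in the sources used here, so values of genes with close relatives (C4A, SERPINA1) are uncertain. Each file held 21785 lines for 21755 IDs, since 10 IDs were listed 4 times and used once. A RefSeq gene table of another build (Sscrofa11.1) gave symbols for 6654 IDs, so no coordinates are given. The submitters' processing notes also name SAMtools.

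Counts were tested with edgeR 4.0.16 in R 4.3.3 (TMM, at least 10 summed counts, quasi-likelihood test, Benjamini-Hochberg adjustment over all IDs tested), with SE as the log2 fold change over the root of F. Fits used all 20 samples for tissue and for the difference between tissues, and the 10 samples of a tissue otherwise. The mapped share was the total count over the reads the study lists. Values were named by a rule: members with an unadjusted p under 0.05 by androstenone or called by mapped share, the highest of each role in each tissue, those not called higher in liver, and MBL2. The members, lists and rule were chosen with earlier results of these data known. The procedure was also run on simulated counts with large changes set in IDs above a count limit. That run does not cover small changes or genes of few counts. Alternatives were DESeq2 1.42.0, other scalings and filters, a replicate block, covariates and leaving out each sample. 0 columns of per-sample values were left unused. No 2 libraries of a group agreed within sampling noise. The values of 1 gene of the other complement genes are not reported here.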

Additional observations from a re-analysis of the deposited data

Results flagged for a closer look

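Each gene was examined in each group of 5 libraries where it had at least 30 counts, 107 combinations in all, for a library whose gap to the nearest other on the log2 scale took most of the group's range. Such a library was found in 8 of the 107, and chance alone gives about 5% of groups. In the livers, low 5 stood above the other low livers for C1S (1672 CPM) and F9 (1550 CPM), high 3 above the other high livers for F2 (2102 CPM) and MBL2 (35.8 CPM), and low 2 below the other low livers for CFP (41.8 CPM). Low 5 and high 3 were the livers with the highest shares of counted reads. In the testes, low 1 stood below the other low testes for SERPING1 (71.6 CPM), high 1 above the other high testes for C8G (12.5 CPM), and low 2 above the other low testes for F2 (1.39 CPM). High 1 was also the testis with the highest ALB.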

How the results depend on the processing

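Members called higher in liver numbered 27 to 29 over all alternatives and 28 to 29 with a sample left out. PLAT was called lower except at a fold change of at least 4, which left 0 members lower. With total counts alone F8 (-0.17) and PLAU (-0.46) changed sign. By androstenone 0 members were called in testis, in the test of the difference and with any sample left out, and 1 in liver (MBL2) by the likelihood ratio test with the trended dispersion. The count for the mapped share was least stable, at 7 members, 4 with total counts alone, 2 without the 2 highest shares, and 4 to 11 with a liver left out. The liver share of counts rose to 5.19% without the 10 most abundant other IDs. The causes of these changes were not tested, and the fits with livers left out also had fewer samples. Upper-quartile scaling, total counts alone in each tissue, and the removals of 2 libraries were added after the data were seen.

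The labels give the same replicate numbers in each group but do not say that a number marks a boar, although testis and liver came from the same boars. Testis and liver of the same group and number had correlations of -0.04 to 0.38, above 0.1 in 5 of 10 pairs. Set against the 5 livers of its group, a testis correlated best with its own number in 4 of 10 cases. With so few samples this neither shows nor excludes that a number marks a boar. The numbers were left out of the main fits because the labels do not tie them to boars, and a replicate block was an alternative. Over both tissues the block took testis and liver of the same group and number as the same boar. With it 29 members were called higher in liver (PLAU added). Within a tissue the block instead tied low and high libraries of the same number, which come from different boars. There 0 members were called by androstenone and 2 (MASP1 and SERPINC1) by mapped share, where 641 IDs were called in place of 4175. The mapped share fit then had more terms for the same livers, and the cause of the fall was not tested.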
